A study of Arabidopsis thaliana with 18 samples.

Results

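The xct-2 mutant of Arabidopsis thaliana was compared with its wild type Col-0, using the 3 libraries titled for xct-2 and the 3 titled for Col-0 out of the 18 libraries of the series. Both groups were whole seedlings grown on Murashige and Skoog plates, first 3 days in the cold and dark and then at 22 °C under continuous illumination (55 µmol m-2 s-1). About 60 mg of seedlings was taken every 2 h over 24 h and pooled, at day 11 per the treatment protocol and at 10 days of age per another label, so that each library averages over the day. The labels call the 3 samples of a genotype independent biological replicates. RNA was sequenced as PacBio Iso-Seq, in which 1 long read can span a whole transcript, so the splice junctions of a molecule are read together. The labels give xct-2 by its name alone. They state neither the lesion nor whether any transgene is present, and they do not call it a null allele.

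XCT (XAP5 CIRCADIAN TIMEKEEPER) is a nuclear protein first studied for its effect on the circadian clock and later tied to the spliceosome. The spliceosome removes an intron in 2 steps. It cuts at the 5′ splice site and forms a branched intermediate, and it then joins the upstream exon to a 3′ splice site, which in most introns is an AG that lies a short way downstream of the branch point. When more than 1 AG follows the branch point, the sites compete, and a shift by a few bases adds or removes a piece of the next exon.

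The 6 libraries held 702992 to 917839 reads assigned to genes, out of a range of 459150 to 1046273 over the series. Each gene read carried on average a number of junction reads that rises with the length of transcript read. It was 8.81, 7.93 and 11.5 in Col-0 replicates 1 to 3 and 10.1, 7.53 and 10.8 in xct-2 replicates 1 to 3. The genotypes differed by 0.0533, less than the spread of the libraries (exact permutation test, two-sided, p = 1). Mesophyll, root, vascular and epidermal marker genes were detected, and 6 of 22 markers, those of the flower and the seed and the stem-cell gene WUS, had 0 reads in all 6 libraries. XCT itself (AT2G21150, chromosome 2, plus strand) had 8, 16 and 2 reads in Col-0 and 4, 8 and 4 in xct-2. Its first 3 exon bins, from 9065338 to 9066048, had no read in any xct-2 library, whereas bins 4 to 12 had 4 to 8 reads in each. The 3 introns that join bins 1 to 4 were called as used less (adjusted p = 0.0002, 0.000385 and 0.000302, edgeR with Benjamini-Hochberg adjustment). The transcripts counted for XCT in xct-2 thus lacked the 5′ part of the gene.

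To ask which introns changed, the use of each junction was first set against all other reads of its gene. Introns of the annotation were mostly used less in xct-2, and junctions outside the annotation, called unannotated here, were mostly used more. Of 50590 junctions tested in 8509 genes, 1275 junctions (2.52%) in 733 genes were called (adjusted p below 0.05 by Benjamini-Hochberg, from the quasi-likelihood test of edgeR). Among annotated junctions 736 were used less (1.57% of those tested) and 44 more (0.0938%). The unannotated junctions went the other way, with 473 rises (12.8%) and 22 falls (0.594%). The annotated junctions that fell went from a median of 97.2% of gene reads in Col-0 to 79.6% in xct-2, and the unannotated ones that rose went from 0.0731% to 10.1%. Of the latter, 204 had no read in the 3 Col-0 libraries. Such junctions passed the read minimum only through other libraries of the series, so they could rise but not fall. The excess of rises among unannotated junctions was thus partly fixed in advance.

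The balance of rises and falls depended on the denominator and on the libraries fitted. It was 517 rises to 758 falls in the model described, 539 to 243 with the gene count as an offset, and 433 to 368 when only the 6 libraries were fitted. Without Col-0 replicate 1 it was 454 to 457, and without Col-0 replicate 3 579 to 579. The annotated falls went from 736 to 218 with the offset and to 442 without Col-0 replicate 1. In the authors' deposited table for the same comparison 1416 junctions carry an adjusted p under 0.05, and 1167 of the 1275 junctions called here are among them, all with the same sign.

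The competition within an intron was then measured directly. Each alternative junction was paired with its partner, the annotated junction of the gene that shares exactly 1 of its splice sites and has the most reads, and the share of the alternative in the reads of both was tested. This share does not depend on how many reads reach the intron. In xct-2 the alternative gained in 675 of 4053 pairs tested (16.7%) and lost in 110 (2.71%), together 785 pairs (19.4%) in 585 of 2195 genes (edgeR, adjusted p under 0.05). Shares of the Col-0 and xct-2 libraries did not overlap in 742 of the 785, beside 1176 of all 4053 pairs tested (29%). In 522 of the 675 rising pairs the alternative held less than 5% in Col-0, and in 208 it had no read there. These 208 passed the read minimum through other libraries of the series and could only rise. The counts of rises and falls are therefore not an even comparison. It became the majority form in xct-2 in 60 rising pairs, against 2 that were already above 50% in Col-0.

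Nearly all of these shifts were at the 3′ splice site, and they had a direction. Alternative 3′ sites downstream of the partner's site, which shorten the next exon, rose in 624 of 1635 pairs (38.2%) and fell in 16 (0.979%). Alternative 3′ sites upstream, which lengthen it, rose in 30 of 895 pairs (3.35%) and fell in 82 (9.16%). At the 5′ splice site few pairs were called, with 13 rises (1.7%) and 6 falls (0.784%) among 765 downstream sites and 8 rises (1.06%) and 6 falls (0.792%) among 758 upstream sites. In both directions the site nearer to the 5′ splice site was therefore the one that lost reads in xct-2.

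The same direction was seen for sites in the annotation and for sites outside it. Of unannotated downstream sites, 547 of 1190 rose (46%) and 11 fell (0.924%). Of annotated downstream sites, 77 of 445 rose (17.3%) and 5 fell (1.12%). Among upstream sites, 54 of 543 unannotated ones fell (9.94%) and 22 rose (4.05%), and 28 of 352 annotated ones fell (7.95%) and 8 rose (2.27%).

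The part of the pairs that was called differed with the distance from the partner's site. Downstream sites within 3 bases, the class that includes tandem NAGNAG acceptors, rose in 18 of 296 pairs (6.08%). The called part was 14.6% at 4 to 5 bases and reached 49.5% at 6 to 8 bases and 54.3% at 9 to 12. It was highest at 13 to 20 bases, where 180 of 261 pairs rose (69.0%), was 64.0% at 21 to 40 bases and 21% at 41 bases or more. Upstream sites fell most often at 6 to 8 bases (15 of 65 pairs, 23.1%), against 8.92% within 3 bases and 3.07% at 41 bases or more. That profile was set by the unannotated sites, of which 76.8% rose at 13 to 20 bases and 76.4% at 21 to 40. Annotated downstream sites rose most often at 6 to 8 bases (32 of 75 pairs, 42.7%), and 15.2% of them rose in each of the classes at 13 to 20 and 21 to 40 bases. A pair is called more easily where it has more reads, and read depth was not matched between these classes. Unannotated sites that were rare in Col-0 could reach the read minimum through mutant libraries. The percent that rose among them is therefore not independent of the filter.

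**Figure D1:**
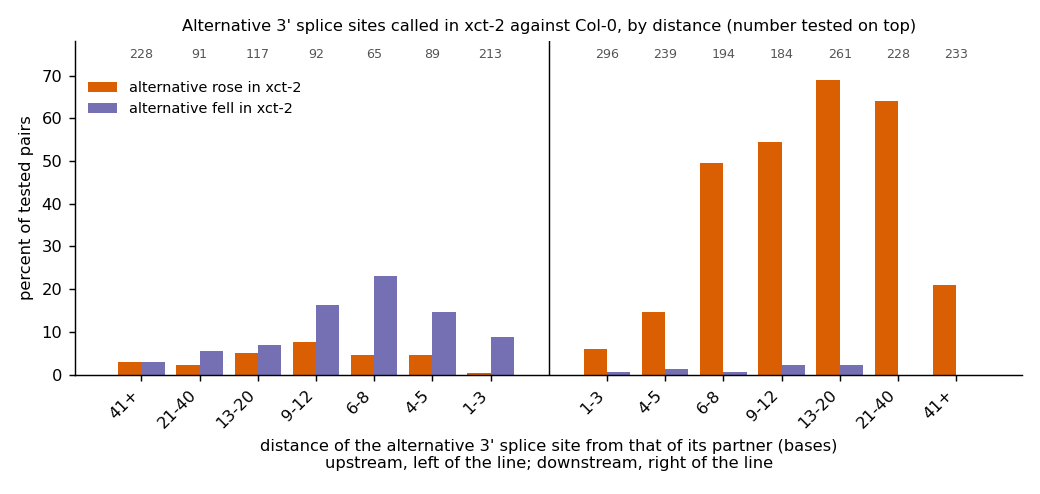
Percent of tested pairs (vertical axis) in which the share of the alternative 3′ splice site rose (orange) or fell (violet) in xct-2 against Col-0 (edgeR, adjusted p under 0.05), by its distance in bases upstream (left) or downstream (right) of the partner's site; the number of pairs tested stands above each class. Annotated and unannotated sites are pooled, and a site with no read in Col-0 could only rise. Rises fill the downstream side and peak at 69.0% for 13 to 20 bases, where unannotated sites reach 76.8% and annotated ones 15.2%, and falls are the more frequent call upstream within 40 bases.

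The size of the shift was moderate in most introns. Unannotated downstream sites that rose went from a median share of 0.203% in Col-0 to 11.1% in xct-2 (quartiles 5.20 and 23.3%), at a median distance of 15 bases. Annotated downstream sites that rose were already in use in Col-0, at a median of 9.58%, and reached 30.7%, at a median distance of 7 bases. The upstream sites that fell went from 20.7% to 6.20%. Other genotypes of the series entered the shared estimate of the spread but not the contrast, and their values are given as description. The xct-1 libraries had medians of 5.56%, 20.5% and 11.1% for the same 3 classes, and xct-2 libraries with the XCT::XCT transgene had 0.380%, 10.7% and 19.7%. Summed over all rising unannotated downstream sites, the share was 0.759, 0.754 and 0.757% in the Col-0 libraries and 7.28, 8 and 6.97% in the xct-2 libraries. The sites were called from these same libraries, so the gap between Col-0 and xct-2 is no added result.

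The 624 rising downstream sites belonged to 606 introns of 475 genes. Most of these genes (385) had 1 such intron, 67 had 2 and 23 had 3 or more. The highest number was 9, in GLU1 (AT5G04140, ferredoxin-dependent glutamate synthase), of which 32 annotated junctions were tested. GLU1 was read deeply, and the mean shares of its called sites in xct-2 ran from 0.143 to 2.48%, so many introns there did not mean a large shift. The introns had a median length of 98 bases, against 104 for all introns with a tested downstream site. They were the first in 12.5% of cases against 18.6%. Only 4 of the 624 alternatives (0.641%) lay beyond the next annotated 5′ splice site, against 64 of 1635 tested (3.91%). A 5′ splice site counted here only if its junction had enough reads beside those of the partner. Apart from 5′ splice sites with fewer reads, the moved stretch was thus a piece of the next exon in the other introns. Of shifts over 5 bases, 240 of 571 (42.0%) were multiples of 3 among rising sites and 202 of 518 (39.0%) among sites not called. Without a limit on distance, multiples of 3 made up 49 of 77 rising annotated sites (63.6%) and 209 of 547 rising unannotated ones (38.2%). Among all 995 downstream sites not called the share was 39.3%. It was not split by annotation, so neither class can be set against its own background.

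The largest rise was in LNK2 (AT3G54500, chromosome 3, minus strand), a coactivator that works with the REVEILLE factors of the clock. Its first intron, from 20178805 to 20178940, was replaced by an unannotated form that ends 23 bases further downstream, at 20178782. The alternative had 0 of 53, 1 of 30 and 0 of 38 reads of the pair in Col-0 and 31 of 37, 61 of 70 and 31 of 35 in xct-2. The groups were far apart, at 1.11% ± 1.92 and 86.5% ± 2.46 (SD, n = 3), a change in log2 odds of 9.13 with an SE of 0.628 (edgeR, adjusted p = 8.01e-34). The lowest xct-2 value, 83.8% in replicate 1, had a 95% Wilson interval of 68.9 to 92.3%, which covers counting error only.

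HDA15 (AT3G18520, a histone deacetylase) shifted by 13 bases at its intron from 6363030 to 6363131 on chromosome 3. The alternative held 1 of 58, 0 of 29 and 0 of 23 reads in Col-0 and 22 of 23, 33 of 44 and 16 of 21 in xct-2. Its share went from 0.575% ± 0.995 to 82.3% ± 11.6 (adjusted p = 3.89e-23, edgeR). CAT2 (AT1G58030, a cationic amino acid transporter) shifted by 20 bases at its intron from 21466438 to 21466511 on chromosome 1. None of its 321 pair reads in Col-0 used the alternative, and 35 of 41, 42 of 60 and 27 of 37 did in xct-2. Against a floor of 3 reads over the Col-0 group the share was at least 80.6-fold higher, at 76.1% ± 8.15 (adjusted p = 1.39e-40, edgeR).

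In TOP3A (AT5G63920, a DNA topoisomerase) the shift was 45 bases and the share went from 2.67% ± 2.98 to 75% ± 5.31 (adjusted p = 2.13e-23, edgeR). In CPL2 (AT5G01270), a phosphatase-like protein that acts on the tail of RNA polymerase II, a site 21 bases downstream had 0 of 282 reads in Col-0 and 70.8, 60.3 and 65.8% of reads in xct-2, at least 62.6-fold higher. The ABC transporter gene ABCB26 (AT1G70610) had 0 of 484 reads on a site 19 bases downstream in Col-0 and 67.2, 74.1 and 63.2% in xct-2, at least 112-fold higher. All 3 xct-2 libraries stood above all 3 Col-0 libraries in each of these genes, which was a condition for naming a pair and is no added result.

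DFD (AT3G55630, a folate-metabolism enzyme) and NINJA (AT4G28910, the adaptor that links JAZ proteins to a corepressor in jasmonate signalling) both used a site 12 bases downstream. For DFD the share was 5.81, 9.80 and 12% in Col-0 and 73.9, 80 and 77.8% in xct-2. For NINJA it was 4.17, 6.38 and 9.52% in Col-0 and 70.0, 63.8 and 78.6% in xct-2. Both sites were thus in use in the wild type and became the main form in the mutant. AT4G11670 behaved alike with a site 13 bases downstream, from 8.43% ± 2.18 to 68.1% ± 12.3 (adjusted p = 1.15e-23, edgeR). AT4G33500, also at 13 bases, went from 0.841% ± 0.439 to 60.8% ± 10.0 (adjusted p = 9.23e-51, edgeR).

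CRK18 (AT4G23260, a cysteine-rich receptor-like kinase) used a site 36 bases downstream in 0.629% ± 1.09 of pair reads in Col-0 and 65.6% ± 9.27 in xct-2 (adjusted p = 7.16e-16, edgeR). CRK18 and its neighbour EMB1290 belong to the same gene family, and how reads of close copies were divided is not given in the sources used here. All 12 of the largest rises, these 11 and UBP13 described with the clock genes, were unannotated 3′ sites downstream.

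The 4 largest falls were all 3′ sites upstream of the partner, 5 to 28 bases away. In AT2G39280 (chromosome 2) an annotated site 15 bases upstream held 14 of 28, 10 of 19 and 14 of 23 reads in Col-0 and 1 of 14, 0 of 17 and 2 of 28 in xct-2. The share fell from 54.5% ± 5.67 to 4.76% ± 4.12 (adjusted p = 1.55e-07, edgeR), so that the downstream annotated site became nearly the sole form of the pair. AT2G46910 lost a site 11 bases upstream, from 42.1% ± 16.6 to 4.07% ± 1.5 (adjusted p = 8.23e-09, edgeR). AT4G25290 lost one 28 bases upstream, from 60.2% ± 12.3 to 23.0% ± 7.23 (adjusted p = 6.54e-17, edgeR). AT4G36050 lost one 5 bases upstream, from 54.1% ± 13.7 to 17.8% ± 8.55 (adjusted p = 0.0049, edgeR). In AT2G46910 and AT4G25290 junction reads exceeded the reads counted for the gene, so their levels per gene read are not given.

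**Figure D2:**
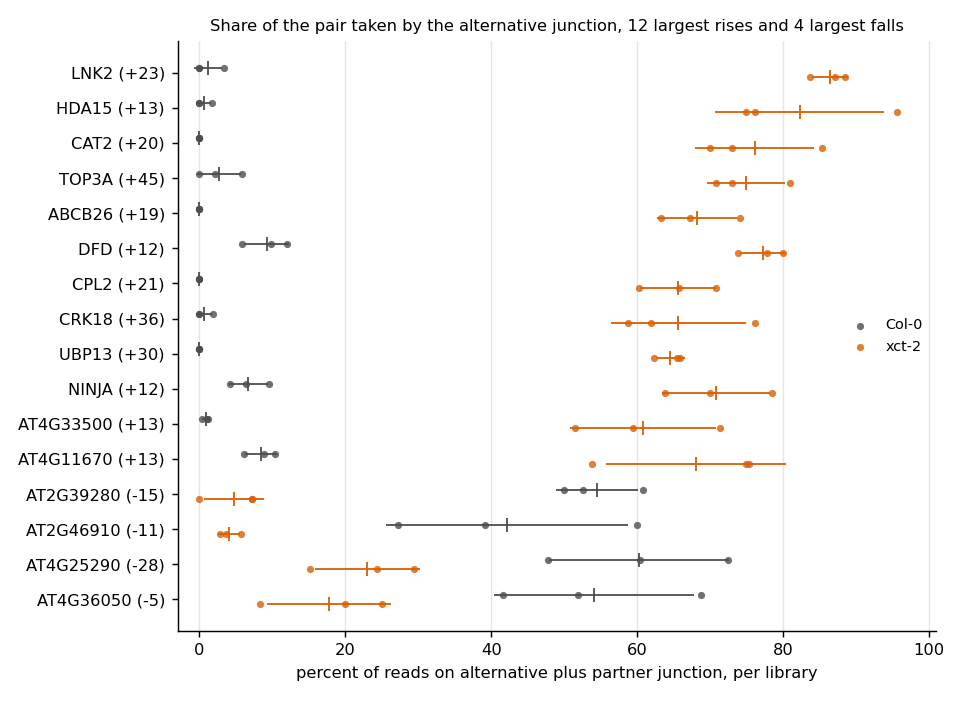
Share of the alternative junction in the reads of the pair (horizontal axis, percent) for the 12 largest rises and 4 largest falls, with the distance in bases after each name (plus is downstream). Points are libraries, ticks and bars the mean and SD of 3, with Col-0 in grey and xct-2 in orange. Only pairs without overlap between the groups were eligible for the 16. The 12 rises lie at 51.5% or more in every xct-2 library.

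The trade-off was then put on the scale of all reads of the gene. In 567 introns with a single rising downstream site and enough reads, the alternative gained a median of 9.24 percentage points of gene reads and the partner changed by a median of -9.74 points. The sum of both changes had a median of -0.198 points (quartiles -1.52 and 0.860), and it lay within 5 points of 0 in 496 introns (87.5%). The gain of the alternative had quartiles of 4.48 and 18.4 points, so this window is wide beside the smaller gains. The partner was lower in 546 of the 567 introns. At the median, then, the loss of the annotated 3′ site and the gain of the alternative were about equal. For introns with small gains the window cannot show this. The pairs were chosen by a change in their ratio, which fixes the sign of the contrast between the members but not the sum. A read uses only 1 of the 2 junctions. Where the partner was in nearly all gene reads in Col-0, the sum could thus hardly rise. A lower partner was there largely fixed by the choice of introns. Tested one by one against the gene, the alternative was called as used more in 436 introns, the partner as used less in 284, and both in 280.

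The sum was lower by over 5 points in 40 introns and higher by over 5 points in 31. In CRK18 the partner went from 87.9% to 15.6% of gene reads while the alternative reached only 30.6%, a sum of -42.3 points. ORP2B (AT4G12460, an oxysterol-binding protein relative) and AT5G01950 had sums of -34.0 and -20.9 points. In the other direction the highest sum, 60.7 points, was in AT1G68935, where the alternative went from 0 to 57.0% and the partner from 6.12 to 9.88%. AT5G56850 and TOP3A had sums of 38.2 and 26.9 points. LNK2 gained 44.6 points on the alternative and lost 19.3 on the partner. Reads at its first intron had made up the smaller part of its reads in Col-0.

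**Figure D3:**
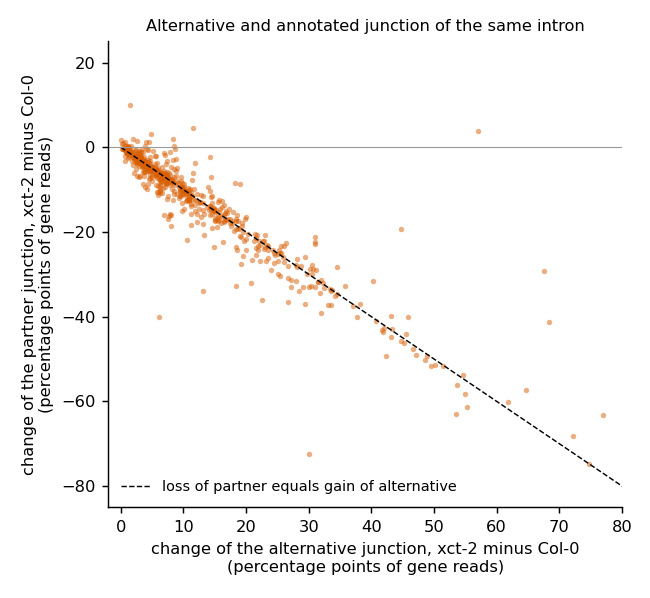
Change of the alternative junction (horizontal axis) against change of its annotated partner (vertical axis), both as xct-2 minus Col-0 in percentage points of gene reads, for 567 introns; each point is an intron and the dashed line marks equal gain and loss. Of the 567 sums 496 lie within 5 points of 0, a window wide beside the smaller gains (lower quartile 4.48 points). CRK18 lies far below the line (-42.3 points) and AT1G68935 far above it (60.7 points).

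Not every lost intron had such a competitor. Of the 736 annotated junctions used less, 325 belonged to a called pair and 411, in 358 genes, did not. For 407 of the 411 no alternative had enough reads to be tested. The reads that cover the exon bins on both sides of an intron but use no catalogued junction across it were counted as a lower bound. Such reads retain the intron or use a splice site missing from the catalogue, and these cannot be told apart here. For the falls outside pairs with enough reads (n = 358) the bound went from a median of 0.694% of gene reads in Col-0 to 11.4% in xct-2. It was higher by over 10 points in 183 of 358, beside 2.01% of all 39179 annotated junctions. For the falls inside pairs (n = 320) it went from 0.374% to 0.640% and was higher by over 10 points in 4. The bound shares its reads with the usage by which these introns were chosen, so it describes them and is no further test.

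The falls outside pairs were also the less stable ones. DESeq2 called 197 of the 411 (47.9%) and 278 of the 325 inside pairs (85.5%). With the gene count as an offset 48 (11.7%) and 140 (43.1%) were called, and without Col-0 replicate 1 181 (44.0%) and 247 (76.0%). By the authors' deposited table, of the 411 falls outside pairs 346 and of the 325 inside pairs 309 carry an adjusted p under 0.05 with the same sign. The other annotated introns of the same genes changed by a median of -0.690 points, against -12.8 points for the introns called.

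In YSL1 (AT4G24120, a transporter of metal-nicotianamine complexes) the intron from 12525703 to 12525792 on chromosome 4 was spliced in 12, 15 and 9 reads in Col-0, where the gene had 11, 16 and 10. In xct-2 it was spliced in 3 of 20, 8 of 24 and 4 of 14 reads. Usage fell from 94.6% ± 5.05 to 25.6% ± 9.51 (adjusted p = 0.000756, edgeR), and the lower bound went from 5.42% to 73.0%, so the lost reads crossed the site without a catalogued junction. EMB1290 (AT4G23250), a neighbour of CRK18 on chromosome 4, had its intron from 12165640 to 12165728 in 81.5% ± 3.67 of reads in Col-0 and 20.7% ± 5.74 in xct-2 (adjusted p = 4.18e-06, edgeR), with a bound of 15.6% and 70.7%. The intron from 17601357 to 17601609 of AT4G37440 fell from 99.1% ± 1.60 to 38.8% ± 6.65, with a bound of 0.926% and 56.3%. In PRMT4B (AT3G06930, a protein arginine methyltransferase) the intron from 2188236 to 2188497 fell from 97.7% ± 3.98 to 38.3% ± 18.7, with a bound of 2.30% and 55.9%. The groups did not overlap in any of the 4, which were chosen as the largest called falls, so this is no added result.

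**Figure D4:**
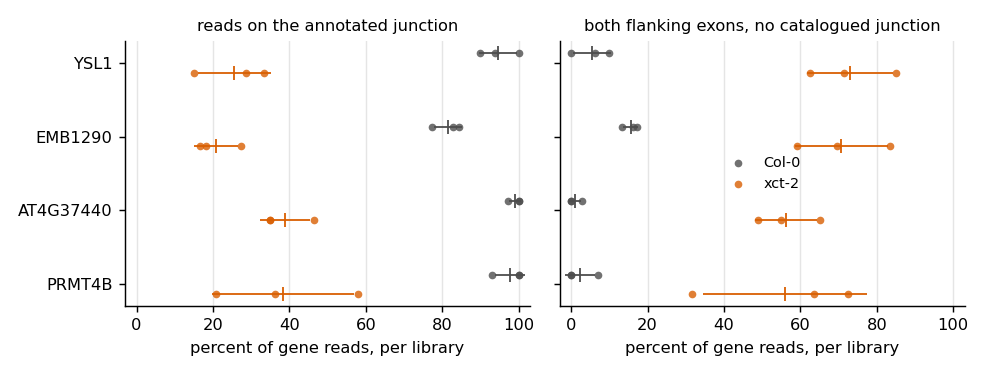
The 4 largest falls of annotated introns outside any called pair: reads on the annotated junction (left) and the lower bound of reads that cover both flanking exons without a catalogued junction (right), both as percent of gene reads per library, with mean and SD of 3. Usage falls from 81.5% or more to 38.8% or less on average, and the bound rises from 15.6% or less to 55.9% or more.

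The 44 annotated junctions used more went from a median of 12.6% to 43.8% of gene reads. The count was 18, 28 and 132 without Col-0 replicates 1, 2 and 3, and 27 without xct-2 replicate 1 or 3. PRMT4A (AT5G49020), the paralogue of PRMT4B, rose at the intron from 19872062 to 19872198 on chromosome 5, with 11.3, 2.63 and 7.69% of gene reads in Col-0 and 56.3, 52.4 and 38.1% in xct-2 (adjusted p = 0.000437, edgeR). D2HGDH (AT4G36400, D-2-hydroxyglutarate dehydrogenase) rose from 1.25% ± 1.1 to 41.6% ± 2.22 at its intron from 17200474 to 17200649 on chromosome 4 (adjusted p = 5.90e-06, edgeR). KINESIN-13A (AT3G16630, a microtubule motor) rose from 9.78% ± 1.08 to 45.6% ± 2.02 (adjusted p = 6.35e-06, edgeR). The genotypes did not overlap in any of the 3, which were chosen as the largest called rises, so this is no added result. Each of the 3 junctions was also the rising downstream 3′ site of a called pair. Their partners changed by -43.1 (PRMT4A), -31.7 (D2HGDH) and -32.7 (KINESIN-13A) points of gene reads. These rises are thus part of the 3′ site shifts described above.

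Gene lists are given by their counts, beside the background of 8.61% of 8509 genes with a called junction and 26.7% of 2195 genes with a called pair. Members and lists were chosen with earlier results of these data known. For every list below, a share above the background is therefore a description and no test of the list. Of 31 clock genes, 25 had a tested junction and 6 of them a called one, while 6 of 16 with a tested pair had a called pair. A gene with more introns and reads has more chances of a call, and by junction 14 of 202 (6.93%) were called in the clock list, beside 2.52% of all junctions. Of its 31 pairs 6 rose and 2 fell, a share near that of all pairs, of which 16.7% rose and 2.71% fell. The median difference over its 31 pairs was -0.312 points, against 0.300 over all pairs.

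UBP13 (AT3G11910, chromosome 3, minus strand), a deubiquitinase that affects clock period, replaced the 3′ end of its intron from 3768334 to 3768410 by a site 30 bases downstream. In Col-0 0 of 161, 0 of 112 and 0 of 359 pair reads used it, and in xct-2 211 of 322, 81 of 130 and 249 of 378. The mean share was 64.6% ± 1.97 in xct-2, at least 137-fold above the floor (adjusted p = 4.87e-74, edgeR). Its close relative UBP12 (AT5G06600) changed at another intron and by far less, from 22.3% ± 0.959 to 28.1% ± 1.01 on an annotated site 3 bases downstream (adjusted p = 0.0122, edgeR).

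LHY (AT1G01060, a morning-phased MYB repressor of the clock) was one of the 4 cases beyond the next 5′ splice site. Its alternative ended 53 bases downstream of the first intron's site, past a whole exon of 26 bases and 27 bases into the next intron. This small exon was thus skipped. The next intron runs from 37204 to 37372, and whether this form kept the rest of it was not examined. The form was absent from 132, 128 and 129 pair reads in Col-0 and made up 102 of 202, 77 of 195 and 80 of 176 in xct-2. The share was 45.1% ± 5.51, at least 58.6-fold above the floor (adjusted p = 1.05e-39, edgeR). Both annotated introns that flank the exon were called as used less, from 82.4% ± 3.73 to 44.9% ± 3.59 of gene reads and from 72.8% ± 1.57 to 40.9% ± 5.47 (adjusted p = 1.89e-05 and 0.000968, edgeR). In xct-1 the same share was only 7.69% ± 0.283. Across LNK2, UBP13 and TIC xct-1 stood at 69.7, 38.8 and 12.3%.

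CCA1 (AT2G46830), the close relative of LHY, had no called pair but 1 intron used less, from 96.9% ± 0.960 to 82.7% ± 2.98 (adjusted p = 0.00137, edgeR). TOC1 (AT5G61380), an evening-phased repressor, shifted by 61 bases, with 0, 0 and 0.962% in Col-0 and 19.5, 28.4 and 20.5% in xct-2 (adjusted p = 1.38e-15, edgeR). TIC (AT3G22380, a nuclear regulator of clock period and amplitude) was read 565 to 3407 times per library and pair. A site 18 bases downstream in its intron 3 rose from 0.239% ± 0.225 to 18.8% ± 0.318 (adjusted p = 4.57e-89, edgeR). A site 3 bases upstream in its intron 7 fell from 10.4% ± 0.399 to 4.94% ± 0.231 (adjusted p = 7.20e-17). LNK2 likewise lost a site 14 bases upstream at another intron, from 19.1% ± 4.47 to 0.895% ± 0.776 (adjusted p = 1.49e-10, edgeR). Both genes thus showed a rise downstream and a fall upstream in different introns.

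Genes of small RNA biogenesis had a called junction in 7 of 11 genes with a tested junction, or 13 of 178 junctions (7.30%, beside 2.52% of all). A called pair was found in 5 of 6 genes. The limits given for the clock list, of chances per gene and of the choice of list, hold here too. Of its 13 pairs 6 rose and none fell, beside 16.7% and 2.71% of all pairs, and the median difference over these pairs was 2.67 points. DCL4 (AT5G20320), which makes small RNAs of trans-acting loci, used a site 23 bases downstream in 0, 2.63 and 0% of pair reads in Col-0 and 31.9, 35.7 and 33.9% in xct-2 (adjusted p = 2.40e-23, edgeR). RDR6 (AT3G49500), the RNA-dependent RNA polymerase upstream of DCL4, used a site 42 bases downstream in 0 of 656 reads in Col-0 and 16.8, 14.2 and 16.2% in xct-2, at least 35.2-fold more. DCL1 (AT1G01040), the microRNA-processing enzyme, used one 15 bases downstream in 0 of 317 reads and 16.9% ± 2.12 (adjusted p = 4.09e-15). The ARGONAUTE genes AGO1 (AT1G48410) and AGO4 (AT2G27040) rose to 2.12% ± 0.344 and, at 2 introns, 4.74% ± 0.837 and 2.73% ± 0.735. DCL3 (AT3G43920) and the exporter gene HST (AT3G05040) had 1 annotated intron each used less, from 87.3% ± 5.22 to 58.3% ± 10.4 and from 98.3% ± 0.260 to 90.7% ± 3.94.

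From the nonsense-mediated decay list, the helicase gene UPF1 (AT5G47010) used sites 32 and 27 bases downstream in 2 introns, at 8.37% ± 0.675 and 6.31% ± 1.14 of pair reads in xct-2 against 0 of 1218 and 1 of 1232 in Col-0 (adjusted p = 4.07e-23 and 2.02e-17, edgeR). All 3 xct-2 libraries stood above all 3 Col-0 libraries at both sites. Shares did not overlap in 742 of the 785 called pairs and in 29% of all pairs tested.

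In light signalling 4 of 21 genes had called junctions, or 11 of 188 junctions (5.85%, beside 2.52% of all). Of its 50 pairs 9 rose and 2 fell, near the 16.7% and 2.71% of all pairs, with a median difference of 0.109 points over the 50. The blue-light receptor gene PHOT1 (AT3G45780) had 4 rising sites 10 to 20 bases downstream in 4 introns, each a small share. The highest was 4.91% ± 0.358 against 0.0472% ± 0.0817 in Col-0, and the lowest 0.796% ± 0.147 against none of 4165 reads. PHOT2 (AT5G58140) reached 3.97% ± 0.915 at a site 30 bases downstream. SPA1 (AT2G46340), a partner of the COP1 ubiquitin ligase, had rises at 148 and 8 bases downstream, to 1.88% ± 0.218 and 1.72% ± 0.292. SPA2 (AT4G11110) had 2 annotated introns used less, from 79.7% ± 3.93 to 55.7% ± 2.04 and from 92.4% ± 3.70 to 81.8% ± 2.02; the second, at an adjusted p of 0.0465, was lost in 11 of the alternatives. The growth regulators PIF4 (AT2G43010) and PIF5 (AT3G59060) both rose at annotated sites 6 bases downstream, from 8.76% ± 5.53 to 28.6% ± 5.39 and from 16.3% ± 2.04 to 27.2% ± 2.25 (adjusted p = 0.00836 and 0.0131, edgeR). A site 11 bases upstream fell in PIF5, from 7.99% ± 2.98 to 2.75% ± 0.511, and one 11 bases upstream in SPA4 (AT1G53090), from 8.62% ± 3.94 to 2.78% ± 2.91 (adjusted p = 0.0354 and 0.0337). The SPA4 libraries overlapped between the genotypes.

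Among the serine-arginine splicing factors none of 78 junctions in 17 genes was called against the gene, and 1 pair rose and 1 fell of 16 tested (16.7% and 2.71% over all pairs), with a median difference of -0.243 points over the pairs. RS41 (AT5G52040) lost a site 3 bases upstream, from 25.4% ± 8.93 to 9.48% ± 1.55 (adjusted p = 0.00397, edgeR), a call lost without xct-2 replicate 2. SR45 (AT1G16610) gained on a site 21 bases downstream, from 20.8% ± 1.63 to 39.6% ± 13.8 (adjusted p = 0.0419), a call lost in 7 of the alternatives. None of 144 junctions in 17 spliceosome genes was called, nor any of 29 in 6 genes of the MOS4-associated complex, 52 in 10 ethylene genes or 68 in 15 photosynthesis genes. Of all junctions 2.52% were called, a share at which lists of this size would hold few calls. These counts, like that of the serine-arginine factors, do not show that a list was spared. In the sugar and nitrogen list the nitrate reductase gene NIA2 (AT1G37130) had a rising site 18 bases downstream. It was absent from 25129 pair reads in Col-0 and held 0.976, 0.938 and 0.899% in xct-2, at least 78.8-fold above the floor. DIN10 (AT5G20250), a gene induced in the dark, fell at a site 16 bases downstream from 24.4% ± 3.57 to 19.3% ± 4.32 (adjusted p = 0.0105, edgeR), with overlapping libraries. That call was lost in DESeq2 and without Col-0 replicate 3, xct-2 replicate 1 or xct-2 replicate 3.

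**Figure D5:**
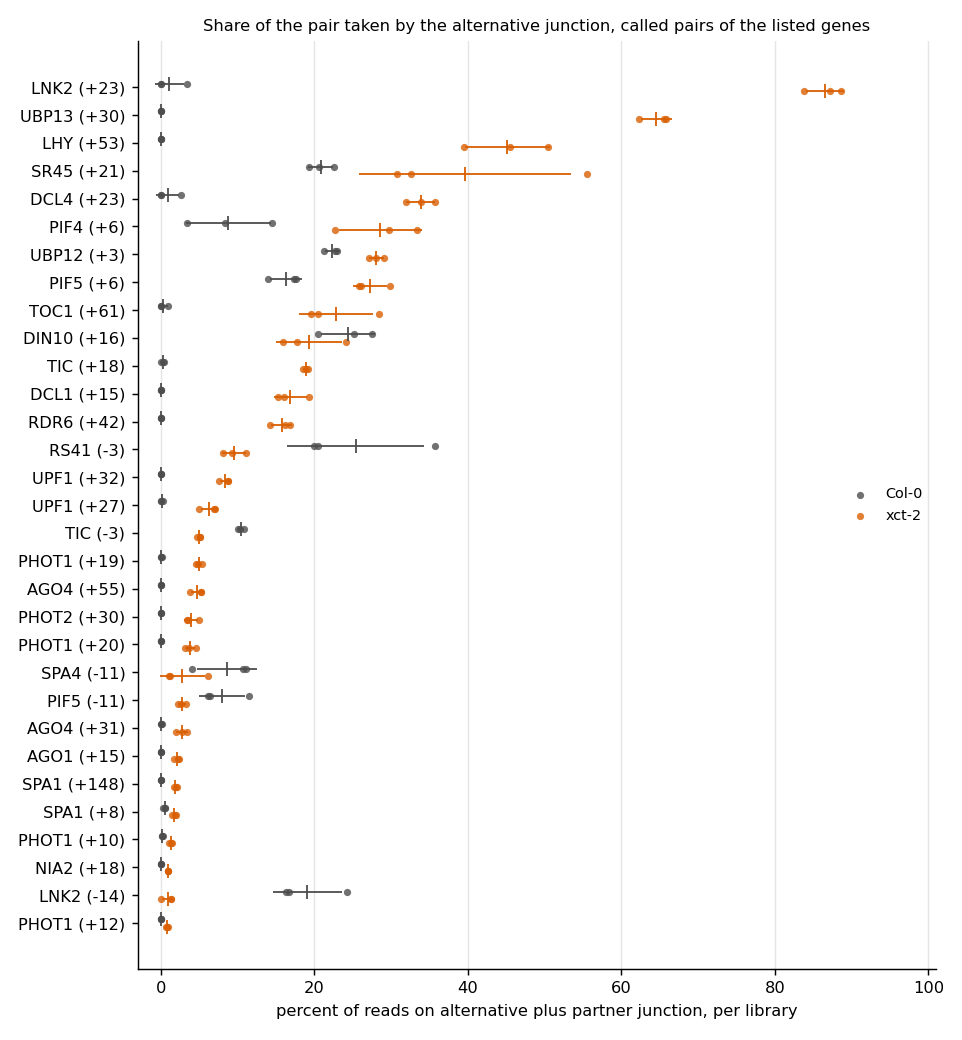
Share of the alternative junction in the reads of the pair (horizontal axis, percent) for the called pairs of the listed genes that are reported here, ordered by the xct-2 mean, with the distance in bases after each name (plus is downstream). Points are libraries of Col-0 (grey) and xct-2 (orange), ticks and bars the mean and SD of 3; LNK2, UBP13 and LHY have the highest xct-2 means among the rises at 86.5, 64.6 and 45.1%, and the upstream sites lie lower in xct-2.

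Few genes were called by their total reads, and some genes varied widely within a genotype. TIC, for example, had 2663 ± 2687 CPM in Col-0 and 2574 ± 1696 in xct-2. The few calls therefore do not show that gene levels were unchanged. Of 10810 genes tested 6 (0.0555%) were called, 2 higher (0.0185%) and 4 lower (0.037%), and 502 had an unadjusted p under 0.05 (edgeR's quasi-likelihood test). In a bulk sample fewer cells of a type and less RNA per cell cannot be told apart. The 474 tested genes with a rising downstream site had a median log2 fold change of -0.0384, against -0.0278 over all genes, and 55.3% of them were lower, against 53.0% of all genes. In the 52 genes where the alternative held over 50% of the pair in xct-2 the median was -0.137, with 28 of the 52 lower. LNK2, the strongest shift, had 97.5 ± 9.76 CPM in xct-2 and 181.8 ± 52.3 in Col-0, a log2 change of -0.90 that did not pass (SE 0.332, adjusted p = 0.83, edgeR).

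ASN1 (AT3G47340), an asparagine synthetase induced by carbon shortage, fell from 85.1, 47.0 and 125 CPM in Col-0 to 3.71, 6.71 and 1.28 in xct-2 (log2 fold change -4.31, SE 0.656, adjusted p = 0.0321, edgeR). FUM2 (AT5G50950, the cytosolic fumarase) fell from 102 ± 18.6 to 30.5 ± 3.63 CPM (adjusted p = 0.0436), and AT1G52510 from 56.7 ± 23.2 to 12.2 ± 3.26. AT4G13575 had 61, 24 and 208 reads in Col-0 and 1, 0 and 0 in xct-2. CRK30 (AT4G11460) rose from 3.92 ± 1.42 to 25.4 ± 2.95 CPM (adjusted p = 0.0369), and AT1G52100 from 7.72 ± 2.42 to 84.1 ± 84.7, where xct-2 replicate 2 alone reached 182. None of the 6 was called when only the 6 libraries were fitted. The count was 0 without Col-0 replicate 1 or xct-2 replicate 2, 1 without xct-2 replicate 1 or 3, 2 without Col-0 replicate 2, and 17 in DESeq2. With the junction reads per gene read as a covariate 490 genes were called. The 11 tissue markers tested had 0 calls, while the summed level of the 6 root markers was 190 to 239 CPM in Col-0 and 135 to 143 in xct-2. Most of that sum came from SCR (76.8 to 137 CPM in Col-0, 57.8 to 98.9 in xct-2) and IRT1 (62.4 to 91.7 and 32.1 to 58.7). SHR was lower (9.85 to 27.5 and 6.38 to 15.1), and CASP1, RHD6 and NRT2.1 lay at 3.71 CPM or less. CASP1 and NRT2.1 reached their highest values in xct-2. The part of this sum in the gene levels was not tested.

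The total of unannotated splicing did not separate the genotypes. Reads on unannotated junctions made up 0.894, 0.802 and 1.16% of junction reads in Col-0 and 1.32, 0.959 and 1.36% in xct-2. The difference of 0.262 points gave p = 0.2 (exact permutation test, two-sided), where 3 libraries against 3 can reach 0.1 at the lowest. The libraries overlapped, with the highest Col-0 value in the library with the most junction reads per gene read.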

How the data were processed

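The authors deposited 1 table of raw counts per library, and per the file headers and values it holds whole-number counts for 334524 features: 32436 genes or loci, 170526 exon bins, 127555 annotated and 4007 unannotated junctions. The authors' deposited comparison of xct-2 with Col-0 gave coordinates and, per the file headers, a p-value and a log2 ratio, of which the sign was used. Per the submitters' processing notes, minimap2 2.17 and build TAIR10 were used; for the counting program and the one behind the comparison table, no name was given in those notes. The 1871 junctions without coordinates there were left out of the tests. Coordinates count from 1. Symbols came from a RefSeq table, in which 31527 of 32209 single genes were found. No genome sequence was used.

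Tests used edgeR 4.0.16 in R 4.3.3. For junctions and pairs each library gave 2 counts (junction and other gene reads, set to 0 where the junction exceeded the gene; or alternative and partner). A quasi-likelihood model over all 18 libraries fitted library terms plus one usage per genotype, and each side needed 20 reads or more over all libraries. The SE is the change divided by the root of F. Junction counts exceeded gene counts in 5.74% of values above 0, by a median of 2 reads, and the junction usages printed were capped at 100%. The trade-off was not capped, and 21 alternatives in genes with few reads or with a large excess of junction reads were left out of it. Gene counts were TMM-scaled and filtered by edgeR's default, and CPM uses those sizes. p-values were adjusted by Benjamini-Hochberg and called under 0.05. The trade-off and the bound used genes with at least 10 reads in each of the 6 libraries. Scripts were tested on simulated data. Alternatives were DESeq2 1.42.0, other minimums, denominators, library sets, a covariate, a replicate block and leaving out each replicate. Against 0 reads a floor of 3 counts at the 95% level was used.

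Named items follow fixed rules: the 12 largest rises and 4 largest falls among non-overlapping pairs with at least 10 reads per library, the 4 largest falls outside pairs, the 3 largest annotated rises, all called genes, XCT and called members of gene lists. For lists this was up to 4 by p; further called members were named after their values were seen, as were GLU1, ORP2B and AT5G01950. Members and lists were chosen with earlier results of these data known. ETR1 and DCL2 were not analysed here. A further list member is not reported here.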

Additional observations from a re-analysis of the deposited data

How the results depend on the processing

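Over DESeq2, other read minimums, the 6 libraries alone, the covariate and each left-out library the 785 called pairs ranged from 582 to 800 and the rising downstream sites from 520 to 629, all within 1.5 times. DESeq2 gave 47 falling pairs and 40 upstream falls, and counts of 23 annotated rises and 481 annotated falls. The gene count as an offset gave 782 junctions, with 218 annotated falls. The 6 libraries alone gave 801 junctions (13 annotated rises, 356 annotated falls, 12 unannotated falls) and 0 genes (0 higher, 0 lower). The covariate gave 2070 junctions (280 annotated rises, 1227 annotated falls, 36 unannotated falls) and 490 genes (206 higher, 284 lower). A minimum of 1 read gave 106 annotated rises. The local denominator, which is the pair test, gave 785 calls, with 89 annotated rises, 37 annotated falls and 73 unannotated falls. For genes DESeq2 gave 17 (5 higher, 12 lower), and no filter on low counts gave 27 (23 higher). The cause of these moves was not tested, apart from the smaller number of libraries or reads that some settings use.

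Leaving out 1 library at a time gave 911 to 1158 junctions, 18 to 132 annotated rises, 442 to 620 annotated falls, 436 to 454 unannotated rises and 14 to 24 unannotated falls, the lowest without xct-2 replicate 1. It gave 714 to 753 pairs (619 to 645 rises, 81 to 109 falls), 586 to 606 downstream rises, 56 to 80 upstream falls, 0 to 9 genes (0 to 4 higher, 0 to 5 lower), and a difference of 0.187 to 0.390 points in the unannotated share of junction reads. Without loci of more than 1 gene that difference was 0.265 points (exact permutation p = 0.2), and per 100 gene reads it was 2.55 (p = 0.5). Of 90 named values 68 passed in every alternative run for them. No value reversed its sign, and 99 of 1208 single values missed the threshold, with all 6 gene calls among those affected.

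Whether libraries of the same replicate number were paired is not clear from the counts. Deviations of same-numbered libraries correlated at -0.21, 0.76 and 0.66 over genes, and 2 of 3 libraries of each genotype correlated best with their own number. With a replicate block 1247 junctions, 789 pairs and 7 genes were called. Depth limits genes with few reads: XCT had 2 to 16 reads per library.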
